A study of Mus musculus with 12 samples.

Results

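Voltage-gated sodium channel subunits were followed in the mouse hippocampus after a seizure-inducing injection of kainic acid. The set holds 6 genes, taken as every probe set of the deposited array table whose annotated symbol is Scn1a, Scn3a, Scn8a, Scn2b, Scn3b or Scn4b. These are 6 of 17097 genes and 15 of 45037 probe sets in the table. Scn1a had 3 probe sets, Scn3a 2, Scn8a 4, Scn2b 3, Scn3b 2 and Scn4b 1. All 6 genes and 14 of the 15 probe sets passed the filter on low values, and the probe set that did not was 1421705_PM_at of Scn3a.

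A voltage-gated sodium channel is a large alpha subunit that forms the pore, joined by smaller beta subunits with 1 membrane-spanning helix. The channels open when a neuron depolarises and carry the rising phase of the action potential, and they are packed most densely at the axon initial segment, where spikes start. Scn1a, Scn3a and Scn8a encode alpha subunits, of which Scn1a is known as the main sodium channel of parvalbumin interneurons, Scn3a is strongest in the developing brain, and Scn8a is the main channel of the distal initial segment and of nodes of Ranvier. Scn2b, Scn3b and Scn4b encode beta subunits that set channel gating and surface number and act in cell adhesion. Variants of several of these genes cause epilepsy in people.

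RNA came from the hippocampus on the injected side and was hybridised to 12 Affymetrix mouse arrays, 3 in each of 4 groups. In the KA groups, 0.3 µg kainic acid (KA), which opens kainate receptors, a class of glutamate receptor, was injected into the amygdala in 0.2 µl, and lorazepam, a benzodiazepine that shortens seizures, was given at 6 mg/kg 40 min later. The controls received 0.2 µl vehicle in the amygdala without seizures, and for them the labels state no lorazepam. Each treatment was sampled at 8 h and at 14 d with its own control arrays. Each title opens with the word Input, which the labels do not explain, so the RNA is described here only as the labels describe it. Strain, sex and age are not given in the sources used here. The labels do not say that the 3 arrays of a group came from separate animals, so every p-value here covers the spread among these arrays, which may be technical.

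Values are log2 intensities of a probe set, which can be compared between arrays for 1 probe set but not between genes. Array medians lay between 4.90 and 4.95, and arrays of 1 group correlated at 0.989 to 0.997. Background, the mean of 9 control probe sets without a mouse target, was 4.04 to 4.60. The 3 KA arrays at 8 h stood apart in sex-linked genes. Xist, the RNA that silences an X chromosome in females, read 7.39 to 8.71 on them and 4.19 to 4.67 on the other 9 arrays. The Y-linked genes Eif2s3y (5.57 to 6.83 against 7.46 to 8.09) and Kdm5d (5.07 to 6.10 against 6.43 to 6.95) were lower there. This difference and the KA injection cannot be told apart at 8 h. In the labels' time field the 8 h controls carry 8, 9 and 10 h and the KA arrays 11, 12 and 13 h, while every title says 8 h. The hippocampal markers Prox1 of dentate granule cells and Wfs1 of CA1 pyramidal cells were well above background on all 12 arrays (at least 8.03 and 9.42). Ttr, a choroid plexus gene, read 9.57 on KA 8 h replicate 3 and at least 11.57 elsewhere. Tcf7l2, a thalamic gene, was highest on KA 8 h replicate 2 at 7.57. On KA 14 d replicates 1 and 3 it read 7.06 and 6.71. The controls read 6.28 to 6.39 and the remaining KA arrays 6.035 to 6.34.

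At 8 h after KA, Scn3a and Scn2b fell, by 0.65 and 0.54 on the log2 scale, and no subunit gene rose. At 14 d, Scn2b was still below its controls, by 0.35, and no other subunit gene passed the test with the probe set that stood for it. Scn1a, Scn8a and Scn3b passed at 14 d under some other settings, most of them given with each gene. With the replicate number as a block, a pairing from the data alone, limma gave them adjusted p of 0.036, 0.0412 and 0.0211. A second probe set of Scn3b did pass at 14 d, where it fell by 0.72. A gene was called with limma at an adjusted p under 0.05 over all 13853 genes tested. The 6 genes were chosen with earlier results of these data known, so a count beside the share of all genes is not a test. At 8 h, 2 of 6 subunit genes were called, both lower, beside 17.5% of all genes in either direction, 9.55% lower and 7.92% higher. Values were below 0 for 5 of 6, with a median change of -0.25 against -0.02 over all genes. In 4 of 6 genes every KA array lay below every control array, as it did for 18.9% of all genes. At 14 d, 1 of 6 was called, beside 2.56% of all genes in either direction, 0.57% lower and 1.99% higher. All 6 values were below 0, with a median of -0.32 against -0.01 over all genes. In 4 of 6, all KA arrays lay below all controls, against 8.5% of all genes. Over all genes, 1097 were higher and 1323 lower at 8 h, and 275 and 79 at 14 d. With arrays centred on pan-neuronal markers, a scaling chosen after seeing the data, these became 1422 and 544 at 8 h and 300 and 23 at 14 d. That scaling left the called subunits at 2 at 8 h and at 0 at 14 d. In bulk tissue, fewer cells of a type and less RNA per cell cannot be told apart.

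**Figure D1:**
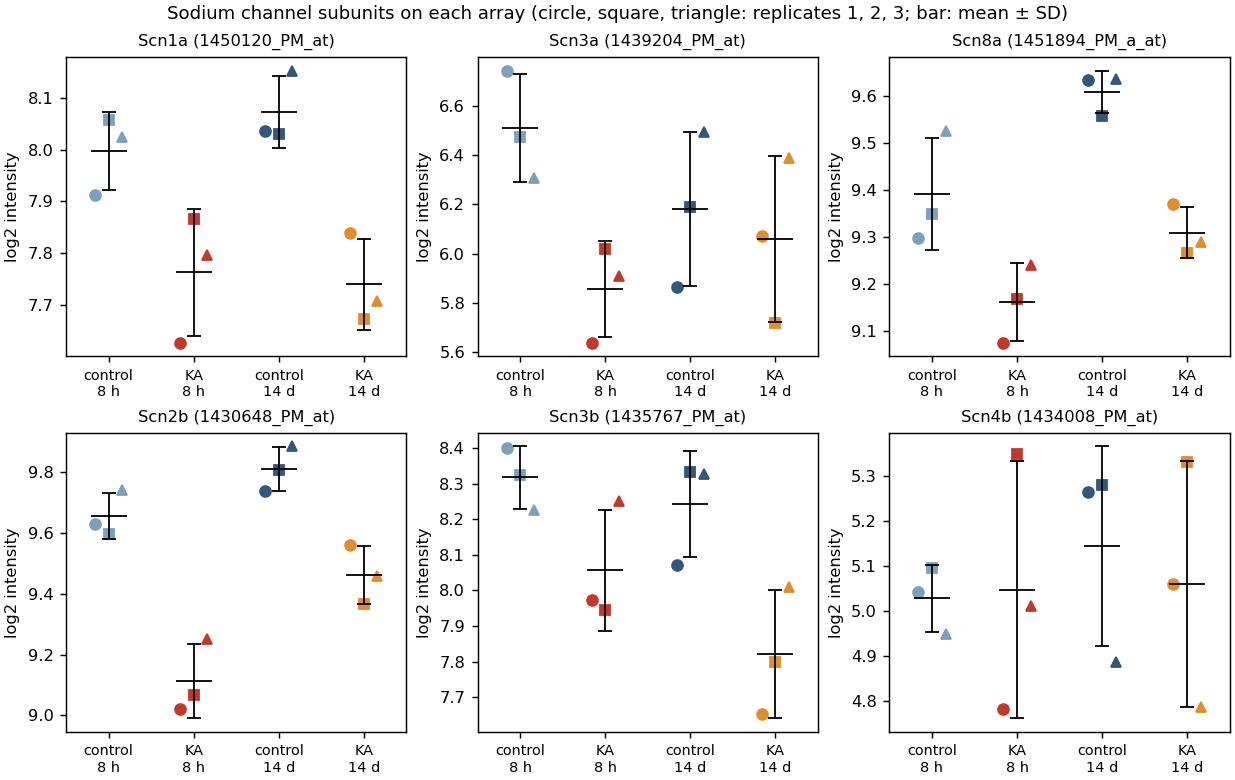
Log2 intensity of the 6 subunit genes on each of the 12 arrays, by group. Circles, squares and triangles are replicates 1, 2 and 3 and bars are the mean ± SD. Scn2b shows the clearest separation, with KA arrays at 9.02 to 9.25 at 8 h below controls at 9.60 to 9.74, while Scn4b overlaps in all groups.

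Scn1a, a pore-forming subunit, was lower on every KA array than on any control of the same time, but the changes did not pass the test. At 8 h its controls read 7.91, 8.06 and 8.02 and the KA arrays 7.63, 7.87 and 7.80 on probe set 1450120_PM_at. The 14 d controls read 8.04, 8.03 and 8.15 and the KA arrays 7.84, 7.67 and 7.71. The groups did not overlap at either time. The change was -0.23 ± 0.09 (SE) at 8 h (adjusted p = 0.0786) and -0.33 ± 0.09 at 14 d (adjusted p = 0.0575). The mean was highest in the 14 d controls (8.07), then the 8 h controls (8.00), KA at 8 h (7.76) and KA at 14 d (7.74). Controls overlapped each other and KA groups overlapped each other. The other probe sets, 1441728_PM_at and 1450121_PM_at, had changes of -0.15 and -0.20 at 8 h and of -0.32 each at 14 d. All 3 probe sets thus lay at -0.32 to -0.33 at 14 d, none of them called. The mean of the 3 passed at 14 d (-0.33, adjusted p = 0.0211), as did the single probe set after a repeated quantile normalization (0.0453) or with array weights (0.0224), which also passed it at 8 h (0.0463 and 0.0162). It passed at 14 d as well without KA 8 h replicate 1 (adjusted p = 0.0494), an array outside that comparison, which enters through the shared estimate of the spread.

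Scn3a, the alpha subunit best known from immature neurons, fell at 8 h. The 8 h controls read 6.74, 6.47 and 6.31, and the KA arrays 5.64, 6.02 and 5.91, on probe set 1439204_PM_at. All KA arrays lay below all controls, although the controls themselves spread over 0.43. The change was -0.65 ± 0.17 (SE), 1.57-fold lower, with an adjusted p of 0.0173 (limma). It missed the threshold without control 8 h replicate 1 (-0.53, adjusted p = 0.0817) or without KA 8 h replicate 1 (-0.54, adjusted p = 0.087). At 14 d the controls read 5.86, 6.19 and 6.49 and the KA arrays 6.07, 5.72 and 6.39. These ranges overlapped almost wholly, and the change was -0.12 ± 0.17 (adjusted p = 0.861, 95% interval -0.49 to 0.25). The change at 14 d was 0.53 ± 0.25 above that at 8 h, which did not pass (adjusted p = 0.278). Group means fell in the order 8 h controls (6.51), 14 d controls (6.18), KA at 14 d (6.06) and KA at 8 h (5.86), and each neighbouring pair overlapped. The second probe set of Scn3a, 1421705_PM_at, read 3.84 to 4.14 over the 12 arrays and was above background on none of them, so it gave no level. Averaging both probe sets gave -0.35 at 8 h (adjusted p = 0.00949). Because the second gave no level, that average adds no support beyond the first.

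Scn8a, the alpha subunit of the distal initial segment and of nodes, was lower on all KA arrays at both times on its brightest probe set, 1451894_PM_a_at. The 8 h controls read 9.30, 9.35 and 9.53 and the KA arrays 9.07, 9.17 and 9.24. The 14 d controls read 9.63, 9.56 and 9.64 and their KA arrays 9.37, 9.27 and 9.29. The groups were separate at both times. The change was -0.23 ± 0.08 (SE) at 8 h (adjusted p = 0.0707) and -0.30 ± 0.08 at 14 d (adjusted p = 0.0757). The 8 h change passed with the replicate number as a block (adjusted p = 0.0469), with the mean of all 4 probe sets (-0.29, adjusted p = 0.0126), after a repeated quantile normalization (0.0349), with array weights (0.0359) and with a trended robust spread (0.0498). That spread (0.0481), the array weights (0.0156) and the block (0.0412) also passed the 14 d change. The mean was highest in the 14 d controls (9.61), above the 8 h controls (9.39) without overlap, and lowest in KA at 8 h (9.16). KA at 14 d (9.31) overlapped the 8 h controls, so the order holds only within a time.

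The 4 probe sets of Scn8a did not move alike. Tested among 32790 probe sets, 1457412_PM_at fell at 8 h, from 8.23, 8.09 and 8.28 in the controls to 7.68, 7.68 and 7.86. The groups were separate, and the change was -0.46 ± 0.11 (adjusted p = 0.00982). Probe set 1439889_PM_at also fell at 8 h, from 8.21, 8.00 and 8.07 to 7.76, 7.79 and 7.84, by 0.29 ± 0.08 (adjusted p = 0.0257). Its call ended when the first (adjusted p = 0.118) or the third (0.0579) control array at 8 h was left out, when the first (0.0856) or second (0.0611) KA array at 8 h was, and with centring on pan-neuronal markers (0.205). At 14 d the first of these had a change of -0.33 (adjusted p = 0.181) and the second of 0.03 (adjusted p = 0.95), with KA arrays at 7.83 to 7.99 and controls at 7.84 to 7.94. Within an array, 1439889_PM_at, chosen for this after its values were seen, lay 1.71 ± 0.02 (SD, n = 3) below 1451894_PM_a_at in the 14 d controls and 1.39 ± 0.08 below it after KA. At 8 h these distances were 1.30 ± 0.19 and 1.36 ± 0.04. They are given with no test. The faintest probe set, 1442208_PM_at, had changes of -0.19 at 8 h and -0.24 at 14 d, neither called.

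Scn2b, a beta subunit that is disulphide-linked to the pore and raises the number of channels at the surface, fell at both times. On 1430648_PM_at the 8 h controls read 9.63, 9.60 and 9.74 and the KA arrays 9.02, 9.07 and 9.25. Controls at 14 d read 9.74, 9.81 and 9.89 and the KA arrays 9.56, 9.37 and 9.46. The groups were separate at both times, by a wider gap at 8 h. The change was -0.54 ± 0.09 (SE) at 8 h, 1.46-fold lower, with an adjusted p of 0.000485 (limma). It kept that call in 27 of 27 alternative analyses. For 14 d it was -0.35 ± 0.09, 1.27-fold lower, with an adjusted p of 0.0468, and 17 of 27 alternatives ended the call. Leaving out any 1 array other than KA 8 h replicate 3 (0.0325) put the adjusted p between 0.054 and 0.195. The change at 14 d was 0.19 ± 0.12 above that at 8 h (adjusted p = 0.482). Group means ran from the 14 d controls (9.81) through the 8 h controls (9.66) and KA at 14 d (9.46) to KA at 8 h (9.11). Only the control groups overlapped among neighbours in that order.

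All 3 probe sets of Scn2b were called at 8 h. Probe set 1457144_PM_at read 8.50, 8.64 and 8.53 in the controls and 7.95, 8.06 and 8.09 after KA, a change of -0.52 ± 0.08 (adjusted p = 0.000311). Probe set 1436134_PM_at had a change of -0.56 ± 0.12 (adjusted p = 0.00409). All 3 calls at 8 h held in 24 of 24 alternatives run on probe sets. Their changes at 14 d were -0.27 (adjusted p = 0.126) and -0.25 (adjusted p = 0.437), and in the probe set fit that of 1430648_PM_at was not called either (adjusted p = 0.0643).

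Scn2b and Scn4b lie next to each other on chromosome 9 on the same strand, and the 250 bases before each start site are shown because Scn2b was called at both times and its neighbour at neither. The Scn2b call at 14 d ended in 17 of 27 alternatives, and Scn4b read close to background on all arrays. Whether these sequences bear on the changes was not tested. The sequences are from RefSeq on GRCm38.p6, plus strand, at chr9:45117626-45117875 for Scn2b and chr9:45138374-45138623 for Scn4b, with CpG dinucleotides in capitals.
Scn2b: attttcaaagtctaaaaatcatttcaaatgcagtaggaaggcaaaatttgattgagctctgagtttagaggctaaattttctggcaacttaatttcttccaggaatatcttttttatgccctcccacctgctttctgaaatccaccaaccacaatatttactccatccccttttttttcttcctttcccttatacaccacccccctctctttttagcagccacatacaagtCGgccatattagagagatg
Scn4b: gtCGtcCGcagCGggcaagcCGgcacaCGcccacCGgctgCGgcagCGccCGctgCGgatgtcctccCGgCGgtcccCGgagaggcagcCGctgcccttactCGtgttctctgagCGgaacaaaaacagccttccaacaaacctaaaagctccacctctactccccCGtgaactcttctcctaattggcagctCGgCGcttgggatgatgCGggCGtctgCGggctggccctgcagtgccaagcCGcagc
The Scn2b window was 38.4% G or C with 1 CpG, and a GC content below it was found in 9.05% of the 32851 promoters in the table. The Scn4b window was 66.0% G or C with 23 CpG, above 84.5% of promoters. The medians over all promoters were 52.4% and 6 CpG. The table held windows for 4 of the 6 genes, and those of Scn8a had 30 and 9 CpG and that of Scn1a 4. On both strands, none of these 5 windows held TTCAGCACC (0.301% of all promoters) or GGACAG (18.7%), which are parts of the element bound by the repressor REST. None held the cAMP response element TGACGTCA (1.55%) or the AP-1 site TGANTCA (6.75%).

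Scn3b, a beta subunit that is not covalently linked to the pore and is strong in hippocampal pyramidal cells, had values below its controls on both probe sets at 14 d, and the fainter of them was called. On the brighter, 1435767_PM_at, the 8 h controls read 8.40, 8.33 and 8.23 and the KA arrays 7.97, 7.94 and 8.25. At 14 d the controls read 8.07, 8.33 and 8.33 and the KA arrays 7.65, 7.80 and 8.01. The groups overlapped at 8 h through KA replicate 3 and were separate at 14 d. The change was -0.26 ± 0.11 (SE) at 8 h (adjusted p = 0.131) and -0.42 ± 0.11 at 14 d (adjusted p = 0.0613). The 14 d value passed when the third KA array at 8 h (adjusted p = 0.0372), the first control at 14 d (0.0472) or the third KA array at 14 d (0.0233) was left out, when probe sets were averaged (-0.57, adjusted p = 0.0081) and with array weights (9.67e-05), which also passed the 8 h value (0.0372). Means ran from the 8 h controls (8.32) and 14 d controls (8.24) to KA at 8 h (8.06) and KA at 14 d (7.82), and each neighbouring pair overlapped.

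On 1426328_PM_a_at, a type of probe set designed against alternative transcripts of 1 gene, Scn3b fell at 14 d. The 14 d controls read 7.10, 7.11 and 7.16 and the KA arrays 6.23, 6.48 and 6.50. The KA arrays at 14 d were the lowest of all 12, and the groups were separate. The change was -0.72 ± 0.12 (adjusted p = 0.00339), and it was called in 24 of 24 alternatives. At 8 h the controls read 7.02, 7.03 and 7.12 and the KA arrays 6.89, 6.76 and 7.27. These overlapped, with a change of -0.08 ± 0.12 (adjusted p = 0.737). The change at 14 d was 0.64 ± 0.16 below that at 8 h on the log2 scale, written as -0.64 for 14 d minus 8 h (adjusted p = 0.0396). That call ended in 14 of 23 alternatives, which include leaving out any 1 array other than KA 8 h replicate 2, KA 14 d replicate 2 or KA 14 d replicate 3, with adjusted p of 0.0559 to 0.109. The probe sets were set against each other after their values were seen, so the next values are given with no test. Within an array, this probe set lay 1.12 ± 0.13 (SD, n = 3) below 1435767_PM_at in the 14 d controls and 1.41 ± 0.09 below it after KA. Of the 14 probe sets tested, 6 were called lower at 8 h and this 1 at 14 d. Over all probe sets, 14.8% were called in either direction and 7.29% lower at 8 h, and 1.68% and 0.403% at 14 d.

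**Figure D2:**
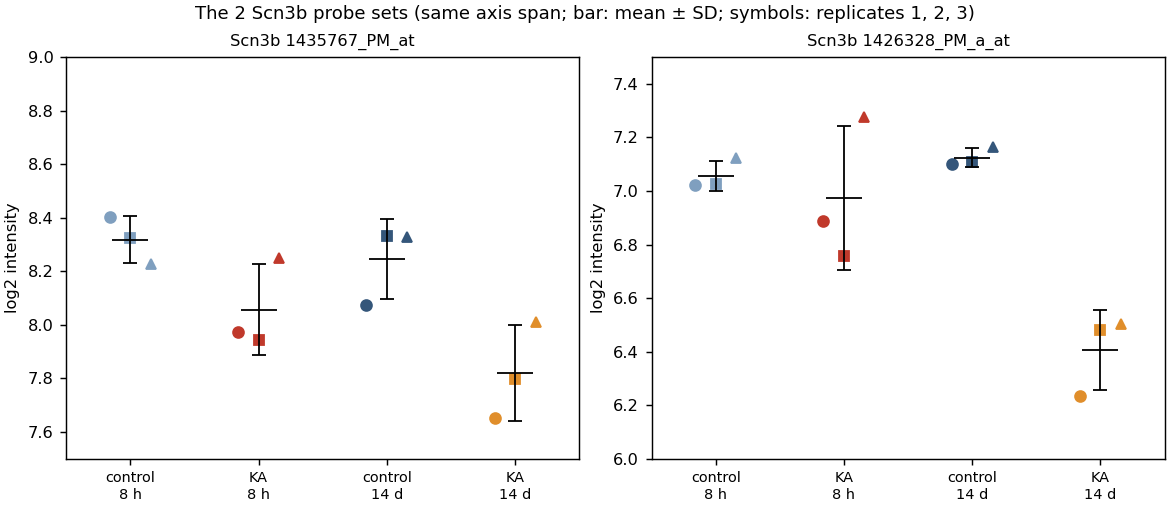
Log2 intensity of the 2 Scn3b probe sets on each array, with axes of the same span. Bars are the mean ± SD and symbols the replicates. The 3 KA arrays at 14 d sit at 6.23 to 6.50 on 1426328_PM_a_at, below the 9 other arrays at 6.76 to 7.27.

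Scn4b, a beta subunit whose tail can act as an open-channel blocker and which is strong in cerebellum and striatum, did not change detectably. The 8 h controls read 5.04, 5.10 and 4.95 and the KA arrays 4.78, 5.35 and 5.01 on its only probe set, 1434008_PM_at. At 14 d the controls read 5.26, 5.28 and 4.89 and the KA arrays 5.06, 5.33 and 4.79. All groups overlapped, and the KA arrays at each time spread over more than their controls at 8 h did. The changes were 0.02 ± 0.15 at 8 h (adjusted p = 0.959, 95% interval -0.30 to 0.34) and -0.08 ± 0.15 at 14 d (adjusted p = 0.895, interval -0.41 to 0.24). These intervals include falls as large as that of Scn1a at 8 h. The values of Scn4b, 4.78 to 5.35, lay not far above the background of 4.04 to 4.60, where a fall is harder to see. The sign at 8 h turned in 6 of 27 alternatives, and without KA 8 h replicate 2, the array with the most Tcf7l2, the value was -0.13. Whether that tissue bears on the value was not tested.

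**Figure D3:**
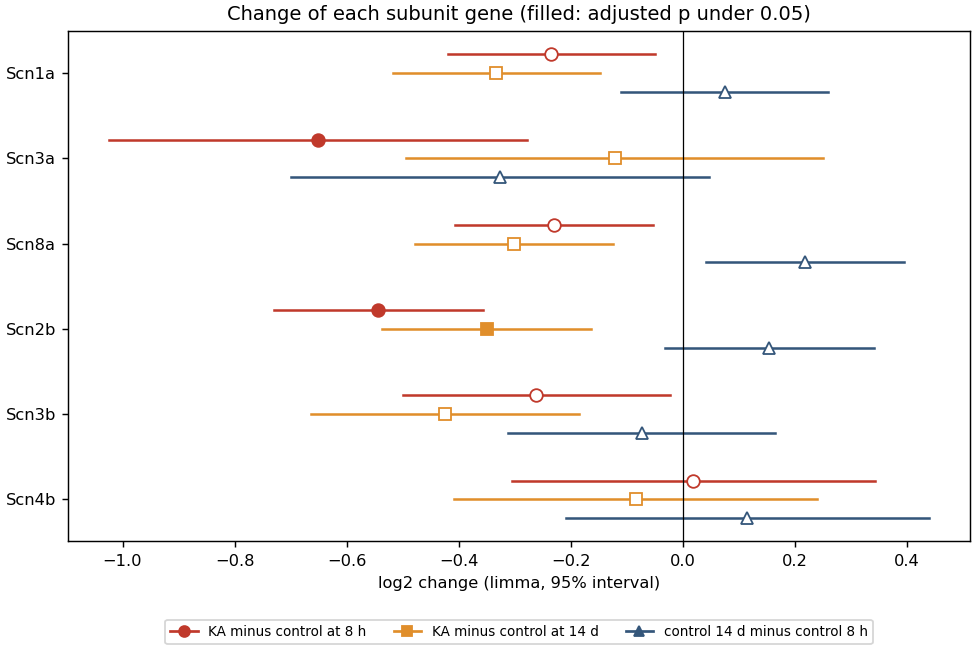
Log2 change of each subunit gene with its 95% interval from limma, for the KA arrays minus the controls of each time and for the 14 d controls minus the 8 h controls. Filled symbols passed an adjusted p of 0.05, which are Scn3a and Scn2b at 8 h and Scn2b at 14 d.

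Set side by side, the subunits differed in when they were lowest, but the difference of the KA changes passed for none of the 6 genes, beside 5.52% of all genes called. At an unadjusted p under 0.05, 1 of the 6 passed, which was Scn3a, beside 17.8% of all genes. Both KA changes carry their own controls, and the difference uses all of them. It also uses the KA arrays at 8 h, so it carries their difference in sex-linked genes. Over the 14 probe sets the difference passed for 1, the Scn3b probe set described above, beside 4.51%. Between the control groups no subunit gene was called, beside 1.8% of all genes, and at an unadjusted p under 0.05 this was 1, Scn8a, beside 14.8%. Scn8a was 0.22 ± 0.08 higher in the 14 d controls (adjusted p = 0.218) and Scn3a had a change of -0.33 ± 0.17 (adjusted p = 0.422). The other 4 genes lay between -0.07 and 0.15. Some fainter probe sets went the other way from the one that stood for their gene. These were 1439889_PM_at of Scn8a (-0.19, adjusted p = 0.303) and 1450121_PM_at of Scn1a (-0.28, adjusted p = 0.2), in the probe set fit. Of the 14 probe sets, 10 had values above 0 and 4 below. Among all genes, 340 had a higher and 424 a lower change at 14 d than at 8 h, or 185 and 425 when centred on pan-neuronal markers. Between controls the counts were 155 and 94, or 188 and 185 with cyclic loess and 47 and 125 with that centring.

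**Figure D4:**
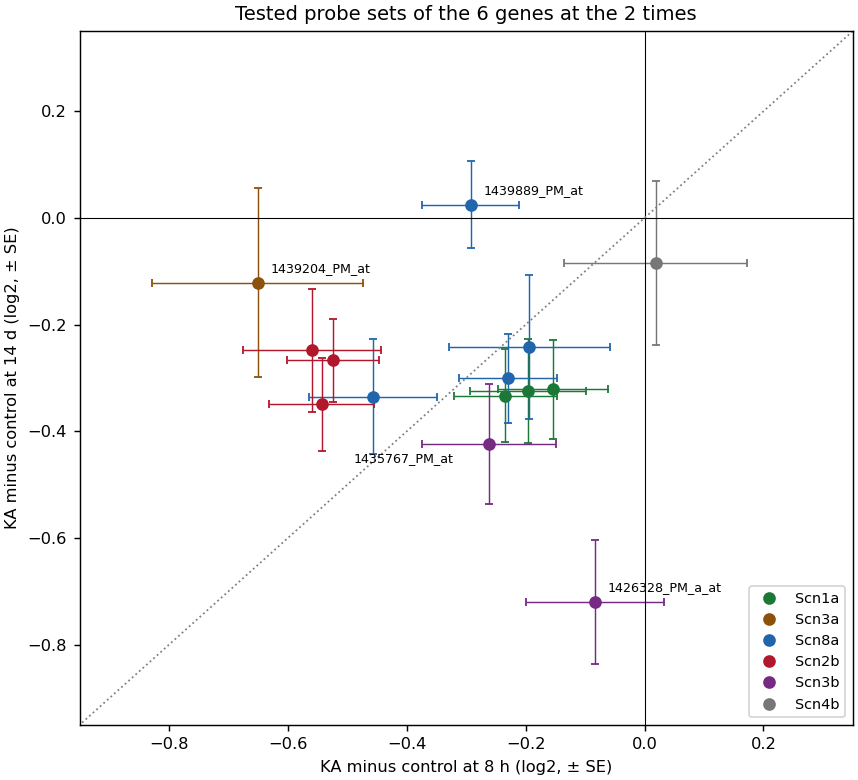
Log2 change at 14 d against that at 8 h for the 14 tested probe sets of the 6 genes, with bars of 1 SE and a dotted line of equal change. The Scn2b and Scn3a probe sets lie above the line, and 1426328_PM_a_at of Scn3b lies farthest below it at -0.08 and -0.72.

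Genes that work beside the channels were read from lists chosen, as the subunits were, with earlier results of these data known. Of 9 other sodium channel subunits and relatives, 5 were tested and 1 was called at 8 h, beside 17.5% of all genes in either direction. This was Nalcn, the sodium leak channel, which fell by 0.51 ± 0.11 (adjusted p = 0.00561). It was not called at 14 d (-0.06), nor was any other gene of that list at either time. Group means of Scn7a (4.32 to 4.43) and Scn11a (4.24 to 4.35) lay within the background range of 4.04 to 4.60. Those of Scn10a (4.82 to 5.01) lay little above it. These genes gave almost no level in which a change could be seen. Scn2a, the alpha subunit of the proximal initial segment, had a change of -0.28 at 8 h (adjusted p = 0.135) on the brightest of its 4 probe sets and of -0.13 at 14 d. In the probe set fit, 2 of the 4 were called lower at 8 h, by 0.46 (adjusted p = 0.00415) and 0.26 (adjusted p = 0.0303), and none at 14 d. The fibroblast growth factor homologous factors are cytosolic proteins that bind the channel's tail and delay its inactivation. Of these, 3 of 4 fell at 8 h, beside 9.55% of all genes called lower. Fgf12 fell by 0.43 ± 0.08 (adjusted p = 0.00163), Fgf13 by 0.35 ± 0.09 (0.012) and Fgf14 by 0.30 ± 0.08 (0.0154), and at 14 d none was called, with a median of -0.14. Fgf13 missed the threshold without control 8 h replicate 3 (0.0542), and Fgf14 without that array (0.0709) or KA 8 h replicate 1 (0.0756). Centring on pan-neuronal markers ended the calls of Nalcn (0.0752), Fgf13 (0.0557) and Fgf14 (0.167).

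The scaffold of the axon initial segment and node, which anchors the channels, had 4 of 13 genes called lower at 8 h, beside 9.55% of all genes, none higher, and none called at 14 d. Its median was -0.20 at 8 h and -0.07 at 14 d. Bcan, a proteoglycan of the perineuronal matrix, fell by 0.51 ± 0.08 (adjusted p = 0.000258). Tnr, a matrix glycoprotein that binds beta subunits, fell by 0.34 ± 0.09 (0.0155), Epb41l3, a membrane-skeleton adaptor, by 0.32 ± 0.08 (0.0166), and Trim46, which bundles initial segment microtubules, by 0.34 ± 0.10 (0.0321). Bcan alone kept its call in 27 of 27 alternatives. Tnr lost its call without control 8 h replicate 1 (0.0805). Its means at 8 h, 4.68 after KA and 5.02 in the controls, lay near background. Epb41l3 lost its call when the first (0.0503) or second (0.0623) control array at 8 h or the first KA array (0.0782) was left out. Trim46 lost it without the second or the third control array at 8 h or the first or second KA array (0.0545 to 0.146). Centring on pan-neuronal markers ended the calls of Tnr (0.109), Epb41l3 (0.269) and Trim46 (0.117), and cyclic loess that of Epb41l3 (0.0939). Of 12 ligases, kinases, proteases and a repressor that act on sodium channels or their genes, 11 were tested and 2 rose at 8 h, beside 7.92% of all genes called higher. Rest, a repressor of neuronal genes that include sodium channel genes, rose by 0.38 ± 0.09 (0.00554) on its brighter probe set, while its other had a change of -0.01, and the mean of both was not called (0.297). Fyn, a kinase that phosphorylates sodium channels, rose by 0.27 ± 0.09 (0.0399), a call that 12 of 27 alternatives ended, among them leaving out any 1 of the 6 arrays at 8 h (0.0537 to 0.161). At 14 d none of the 11 was called.

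**Figure D5:**
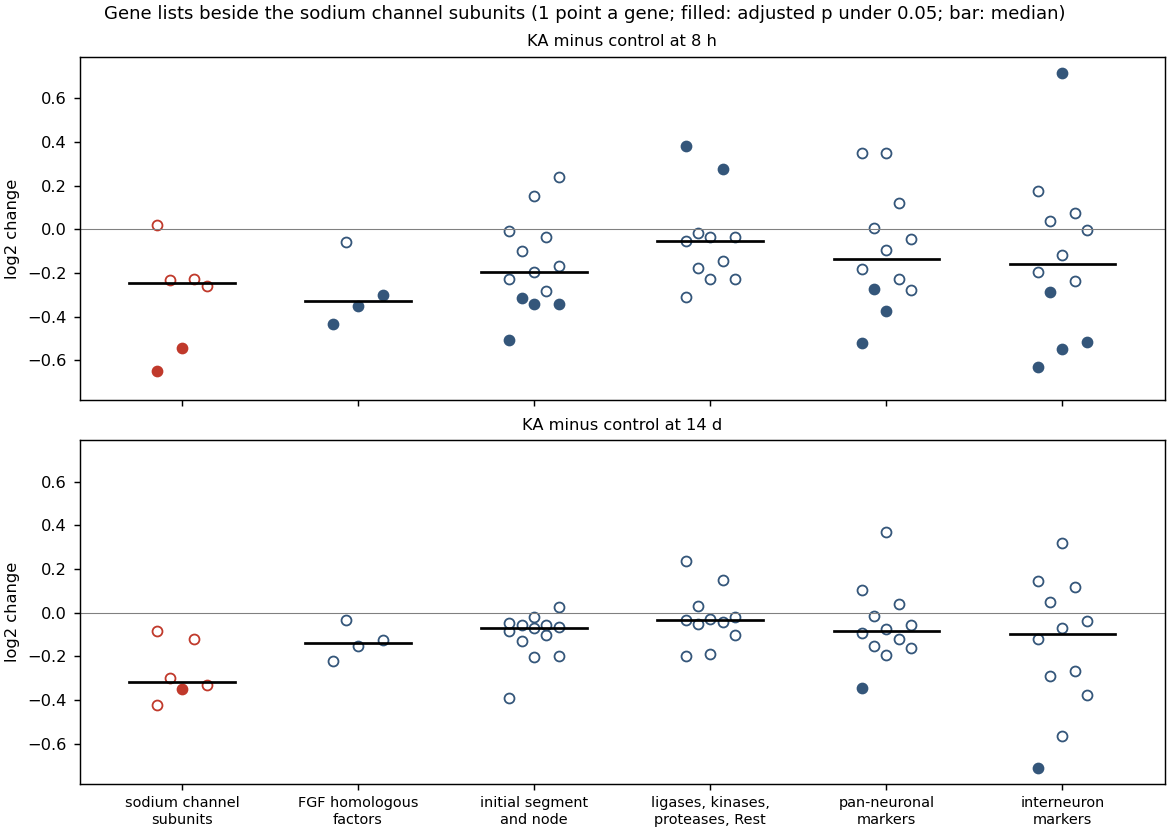
Log2 change of each tested gene in the subunit set and 5 further lists, at 8 h above and at 14 d below. Filled points passed an adjusted p of 0.05 and bars are list medians. The subunit median is -0.25 at 8 h and -0.32 at 14 d, while that of the homologous factors goes from -0.33 to -0.14.

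Some neuronal markers fell at 8 h and others did not. Of 12 pan-neuronal markers, 3 fell at 8 h (Tubb3 by 0.52, Rbfox3 by 0.37 and Thy1 by 0.27), beside 9.55% of all genes called lower. The neurofilament genes Nefl and Nefm had changes of 0.35 each (adjusted p = 0.0668 and 0.135), Map2 of 0.12 and Snap25 of 0.01, and none was called. At 14 d, 1 of the 12 fell (Syt1 by 0.34), beside 0.57%. The medians were -0.14 at 8 h and -0.08 at 14 d. Rbfox3 lost its call in 6 of 27 alternatives, among them leaving out any 1 control array at 8 h (0.0505 to 0.0913), and Thy1 in 10 of 27. Syt1 lost it in 8 of 27, among them leaving out any 1 control array at 14 d (0.0697 to 0.095). The mean of the 12 was 9.60 to 9.71 in the 8 h controls and 9.47 to 9.60 in KA at 8 h, and 9.68 to 9.74 in the 14 d controls and 9.44 to 9.78 in KA at 14 d. Centred on these markers, Scn2b (-0.45, adjusted p = 0.0029) and Scn3a (-0.55, adjusted p = 0.0311) were still lower at 8 h, and Scn2b at 14 d was not called (-0.29, adjusted p = 0.123). The Scn3b probe set 1426328_PM_a_at was still called at 14 d (-0.66, adjusted p = 0.0172).

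Among 12 interneuron markers, 4 fell and 1 rose at 8 h and 1 fell at 14 d, beside 9.55% lower and 7.92% higher of all genes at 8 h and 0.57% lower at 14 d. Pvalb, the calcium buffer of the cells in which Scn1a is the main channel, fell by 0.55 ± 0.11 at 8 h (adjusted p = 0.00354) and by 0.71 ± 0.11 at 14 d (adjusted p = 0.00205). With pan-neuronal centring neither passed (-0.45, adjusted p = 0.0909, and -0.65, adjusted p = 0.0571). Gad1 and Gad2, which make GABA, had changes of 0.00 and 0.07 at 8 h and of -0.12 and 0.14 at 14 d, none called. Kcnc2, a potassium channel of fast-spiking cells, fell by 0.63 and Erbb4, a neuregulin receptor, by 0.52 at 8 h, and Kcnc1 by 0.29. Sst, the neuropeptide somatostatin, rose by 0.72 ± 0.10 at 8 h (adjusted p = 0.000144) and had a change of 0.05 at 14 d. Tac1 had a change of 0.04 at 8 h on the probe set that stood for it. Its other probe set was called higher at 8 h, by 1.14, in the probe set fit.

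Markers of other cell types moved at both times. Beside the counts below, 9.55% of all genes were called lower and 7.92% higher at 8 h, and 0.57% and 1.99% at 14 d. Of 10 astrocyte markers, 2 rose (Sox9 by 1.13 and Gfap by 1.02) and 1 fell (Fgfr3 by 0.39) at 8 h, and 5 rose at 14 d, beside 1.99% of all genes called higher. Their mean was 8.49 to 8.52 in the 8 h controls and 8.66 to 8.73 after KA, and 8.46 to 8.56 and 8.87 to 9.11 at 14 d. Of 9 microglia markers, 3 fell at 8 h (P2ry12 by 1.56) and 1 rose (Cd68), and 7 rose at 14 d. Their mean was 5.68 to 5.79 and 5.64 to 5.73 at 8 h, and 6.07 to 6.09 and 7.15 to 7.31 at 14 d. Of 9 oligodendrocyte markers, 4 fell at 8 h, among them Mog, a myelin protein gene, by 0.69. The median of that list was -0.22, beside -0.25 for the subunits, and none was called at 14 d. Of 5 precursor markers, Olig1 fell by 0.50 and Sox10 rose by 0.38 at 8 h, and none was called at 14 d.

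Of 9 dentate granule cell markers, 3 fell and 3 rose at 8 h, from Dsp, a desmosome gene, at -1.97 to Pdzd2 at 1.02, and 1 fell and 2 rose at 14 d. The shares of all genes, for every count in this paragraph, were 9.55% lower and 7.92% higher at 8 h. At 14 d they were 0.57% and 1.99%. Of 9 pyramidal cell markers, Neurod6 fell by 0.80 and Nectin3 rose by 0.74 at 8 h. At 14 d only Fibcd1, a CA1 marker, was called, lower by 0.96 (adjusted p = 0.00013). Wfs1, also of CA1, had a change of 0.05 there. Of the 9 values 5 were below 0, and the list median was -0.06. Of 11 markers of neighbouring tissue, 2 fell and 2 rose at 8 h and 1 fell at 14 d, which was Lamp5, a cortical marker that fell by 0.61 at both times. The mean of the subunit genes was 7.80 to 7.84 in the 8 h controls, 7.35 to 7.58 after KA, 7.77 to 7.90 in the 14 d controls and 7.53 to 7.61 after KA. The part of these marker changes in the subunit values was not tested beyond the centring given above.

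Over the 12 arrays, the genes whose log2 levels followed each subunit most closely were found by Pearson's r. The arrays share the 4 groups, so these values describe likeness across groups and replicates together. A gene picked this way tends to share the KA change of its subunit, so that change adds no support. Changes are given below only for genes called at both times, and the other genes named were not. For Scn2b the closest genes were Fry (0.984), Cntnap1 (0.984) and Lrrn2 (0.981). The median over all genes was 0.07, and the highest of 13853 values lie above it by selection. Lrrn2, a leucine-rich repeat membrane protein, fell by 0.73 at 8 h (adjusted p = 8.01e-05) and by 0.42 at 14 d (adjusted p = 0.0254). For Scn3a they were Tbc1d14 (0.963), Kdsr (0.928) and Pkp2 (0.921), and for Scn8a Car11 (0.955), Camk2a (0.953) and Otub1 (0.952). Car11, a carbonic anhydrase relative, fell by 0.44 at 8 h (adjusted p = 0.00236) and by 0.40 at 14 d (adjusted p = 0.0203). For Scn1a they were Flywch1 (0.952), Plcxd3 (0.928) and Cplx1 (0.924), the last a regulator of transmitter release. For Scn3b they were Kcnq5 (0.927), a potassium channel that damps firing, Hs3st4 (0.921) and Ddn (0.916), and for Scn4b Actrt1 (0.933), Fbxw4 (0.924) and Kcnj12 (0.899). Kcnq5 fell by 0.28 at 8 h (adjusted p = 0.027) and by 0.34 at 14 d (adjusted p = 0.034).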

How the data were processed

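Hippocampal RNA of 12 samples was measured on Affymetrix mouse arrays. The deposited values are log2 intensities per probe set that the authors made with RMA, which the submitters' processing notes name with affy and no version. The scale is not written in the table, where values of 2.63 to 13.2 have the range of RMA output. No raw scans were used here, and the number of arrays limits the precision.

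Groups were taken from the sample titles. Of 45037 probe sets beyond 104 array controls, 28898 carried 1 gene symbol, 551 several and 15588 none. A gene was represented by its probe set with the highest mean, and kept when above the array's 30th percentile (4.08 to 4.15) on at least 3 arrays, which left 13853 genes. With limma 3.58.1 in R 4.3.3, 1 model with 4 group means and moderated variances was fitted to the 12 arrays, and a second fit covered 32790 probe sets. Tests were two-sided with Benjamini-Hochberg adjustment. The steps were tested on simulated data, where a minimum recovery was required only of changes larger than any subunit change given here.

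The members and gene lists were chosen with earlier results of these data known. The text names all members, up to 4 called genes of each list by the smaller adjusted p, and the 3 genes most like each member. Replicate numbers are shared between groups. Deviations of arrays with the same number correlated at 0.155, 0.138 and 0.413 at 8 h and at 0.164, 0.0684 and 0.463 at 14 d. Arrays with different numbers reached 0.163 at 8 h and 0.349 at 14 d, and the third replicates correlated best with each other, so any pairing comes from the data alone. Other settings of the filter, probe set choice, scaling, array weights, spread estimate and threshold were tried, as were the replicate block and leaving out arrays.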

Additional observations from a re-analysis of the deposited data

Results flagged for a closer look

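The KA changes at 14 d and 8 h differed for 3 features in limma's test of that difference. Over all features, that test called 5.52% of genes and 4.51% of probe sets. The features searched were the subunits, the genes that work beside the channels, and the pan-neuronal and interneuron markers. The test uses the KA arrays at 8 h, whose difference in sex-linked genes cannot be told apart from KA. For probe set 1426328_PM_a_at of Scn3b, the change at 14 d minus that at 8 h was -0.64 ± 0.16 (SE, adjusted p = 0.0396), from a change of -0.08 at 8 h to -0.72 at 14 d. For Bcan it was 0.45 ± 0.11 (adjusted p = 0.022), from -0.51 to -0.06. For Sst it was -0.67 ± 0.14 (adjusted p = 0.0107), from 0.72 to 0.05. The call of the Scn3b probe set ended in 14 of 23 alternatives.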

How the results depend on the processing

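The direction of every subunit gene called held in all alternatives run, and the counts of calls moved. The cause was not tested, except that a threshold of 0.01 and fewer arrays make calls rarer by construction, and testing probe sets counts more features. Called subunits at 8 h numbered 4 after quantile normalization again, 5 with array weights (whose estimation stopped before convergence) and 1 at 0.01, and 1 to 2 with 1 array left out. At 14 d they numbered 4 with the replicate block (Scn1a, Scn8a and Scn3b joined Scn2b, with adjusted p of 0.036, 0.0412 and 0.0211) or with array weights, 3 with the mean of all probe sets, 2 with repeated quantile normalization or a trended robust spread, 0 with all probe sets tested, median centring, pan-neuronal centring, only the groups compared or 0.01, and 0 to 2 with 1 array left out. With array weights, 1 subunit was called for the difference (Scn3a) and 1 between controls (Scn8a). All genes called at 8 h numbered 4843 with all probe sets and 1352 at 0.01. At 14 d they numbered 599 with the block, 551 with all probe sets, 2099 with array weights, 170 at 0.01 and 196 to 454 with 1 array left out. For the difference they numbered 1214, 1478, 2168, 346 and 508 to 899 in the same order. Between controls they numbered 570, 445, 1336, 64 and 85 to 421, and 543 with only the groups compared. The replicate block, a pairing from the data alone, also passed Scn8a at 8 h and changed no other subunit call.

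Values that changed sign were small. Scn4b at 8 h was -0.0013 after median centring, -0.0032 after repeated quantile normalization, -0.062 with array weights, -0.0033 without the third array of each group, and -0.13 to 0.15 with 1 array left out. Scn4b lay between -0.22 and 0.0525 at 14 d and between -0.24 and 0.0473 for the difference with 1 array left out, and Scn3a at 14 d between -0.29 and 0.0486. For the difference, Scn8a was 0.0801 with the mean of all probe sets and Scn1a 0.0518 with array weights. Between controls, Scn1a was -0.0371 with that mean, and Scn3b lay between -0.12 and 0.0126 with 1 array left out. No scaling moved the median of all genes by over 0.1.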

Other observations

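Probe sets of 3 genes that handle sodium channels disagreed at 8 h in the fit over all probe sets, where 14.8% were called. For Ank3, which encodes the ankyrin that holds the channels at the initial segment, 1 of 4 probe sets was called higher, and the 4 changes ran from 0.15 to 0.61. For Camk2a, a kinase subunit, 4 of 6 were called lower, with changes of -0.95 to -0.15, and the brightest, which stood for the gene, was not called. For Nedd4l, a ubiquitin ligase, 3 of 4 were called lower, with changes of -0.60 to -0.04. At 14 d no probe set of these genes was called. These genes were chosen after their values were seen, and no alternative analysis was run on these probe sets. Calls at 8 h were also split for Cntn1 and Fgf12 (1 of 3 probe sets lower each), and Fgf13, Fgf14 and Stmn2 (1 of 2 lower each). They were split too for Rbfox3 (2 of 3 lower), Kcnc1 (2 of 4 lower), and Fyn, Rest and Tac1 (1 of 2 higher each).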
